A study of Homo sapiens with 4 samples.

Results

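Genes of cholesterol and fatty acid synthesis were compared between wild type cells and cells depleted of a macroH2A1 form, a variant of the core histone H2A, in DU154 (the labels' spelling), a line from human prostate cancer. The set held 35 genes taken by symbol: enzymes of early and late sterol synthesis, proteins that govern or carry sterols, and enzymes that make and modify fatty acids. Of these, 33 were read by a named probe and 31 were above background, out of 10673 named genes above background in the whole data set. A probe counted as above background when its detection p-value was under 0.01 on at least 2 arrays, and the 31 genes met this on all 4 arrays. The comparison used 2 arrays of wild type cells and 2 arrays of cells labelled mH2A1.2_KO, each a single-colour Illumina bead array of total RNA. How the depletion was made, whether the depleted cells were a clone, and the medium or serum they grew in are not given in the sources used here. The labels do not name separate cultures for the replicates. A p-value therefore measures spread between arrays alone, and that spread may be technical.

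Cells make cholesterol from acetyl-CoA through mevalonate and squalene, and the precursor acetyl-CoA also feeds fatty acid synthesis. The transcription factors SREBP1 and SREBP2, made by SREBF1 and SREBF2, switch on genes of both pathways. They are held in the endoplasmic reticulum by SCAP and the INSIG proteins when sterol is plentiful, and are cut free in the Golgi when it is scarce. SREBP2 acts mainly on sterol genes and SREBP1 mainly on fatty acid genes, and both bind DNA beside the factors NF-Y and Sp1. Prostate cancer cells are known for active lipid synthesis.

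Promoter windows of 4 of these genes are shown, because they include the gene with the largest difference in each of the late sterol, regulator and fatty acid groups and an early sterol enzyme. Each RefSeq window (GRCh38.p14) runs from 250 bases before to 50 bases after an annotated start, 5′ to 3′. Capitals mark matches, on either strand, to the NF-Y box CCAAT, the E-box CACGTG or the GC box GGGCGG, the last a motif of Sp1. No match of one motif in these 4 windows overlapped a match of another.
FDPS (chr1:155308616-155308915, plus strand): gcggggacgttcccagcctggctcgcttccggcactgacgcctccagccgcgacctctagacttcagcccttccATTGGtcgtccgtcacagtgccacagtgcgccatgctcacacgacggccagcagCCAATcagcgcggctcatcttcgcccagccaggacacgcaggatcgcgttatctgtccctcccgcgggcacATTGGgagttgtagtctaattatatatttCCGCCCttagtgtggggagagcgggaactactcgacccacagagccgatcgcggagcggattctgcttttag
MSMO1 (chr4:165327419-165327718, plus strand): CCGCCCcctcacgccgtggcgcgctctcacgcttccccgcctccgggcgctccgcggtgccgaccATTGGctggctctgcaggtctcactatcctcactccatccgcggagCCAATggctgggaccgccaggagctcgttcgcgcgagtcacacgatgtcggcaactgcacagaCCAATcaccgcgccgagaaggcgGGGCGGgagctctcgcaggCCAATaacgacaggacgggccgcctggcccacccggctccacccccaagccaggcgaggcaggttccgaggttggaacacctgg
INSIG1 (chr7:155297628-155297927, plus strand): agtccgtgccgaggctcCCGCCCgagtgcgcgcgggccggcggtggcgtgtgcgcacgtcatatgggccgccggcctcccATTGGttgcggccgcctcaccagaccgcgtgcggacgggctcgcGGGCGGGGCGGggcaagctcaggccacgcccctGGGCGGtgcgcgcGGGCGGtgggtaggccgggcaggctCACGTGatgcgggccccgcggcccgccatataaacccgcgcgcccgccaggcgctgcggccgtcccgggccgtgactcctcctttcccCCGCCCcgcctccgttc
ELOVL6 (chr4:110198566-110198865, minus strand): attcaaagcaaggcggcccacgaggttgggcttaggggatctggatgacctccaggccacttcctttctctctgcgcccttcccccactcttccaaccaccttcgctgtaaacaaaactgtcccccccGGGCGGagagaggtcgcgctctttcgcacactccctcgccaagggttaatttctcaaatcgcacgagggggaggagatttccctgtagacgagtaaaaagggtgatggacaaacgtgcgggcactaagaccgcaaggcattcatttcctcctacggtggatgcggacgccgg

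The window of MSMO1 held 4 NF-Y boxes and that of FDPS 3, INSIG1 held 1 NF-Y box and an E-box 55 bases before the start, and ELOVL6 held a single GC box 122 bases before the start. RefSeq windows were found for 31 of the 35 genes, with 44 starts in all. The NF-Y box was present in 27 of these 44 windows (61.4%), against 34.6% of all 35116 windows and 35.1% of the 12633 windows of named genes above background. Counted by gene, with a match in any window, it was present in 23 of 31 synthesis genes (74.2%), against 39.7% of all 27305 genes. These were 5 of 6 early sterol genes, 8 of 9 late sterol genes, 3 of 6 regulators and 7 of 10 fatty acid genes that had a window. The GC box was in 86.4% of the synthesis windows, 45% of all windows and 66.6% of those of genes above background. The E-box was in 6 of the 44 windows, or 13.6%, against 7.26% of all windows and 9.48% of those of genes above background. The sterol element TCACNCCAC was in a single synthesis window, that of SREBF2, and in 1.13% of all windows. These letter matches describe the windows and are not evidence of binding, and the motifs were chosen after a first look at the windows.

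The arrays had between 35.4% and 38.9% of probes above background, and log2 values correlated across genes at 0.9747 within the wild type group and 0.9873 within mH2A1.2_KO, and between 0.9729 and 0.9865 across groups. The targeted gene MACROH2A1 had log2 values of 13.02 and 12.91 in wild type cells against 11.97 and 11.83 in mH2A1.2_KO cells by its brightest probe. The difference was -1.07 ± 0.16 (SE, n = 2 per group) with a limma adjusted p of 0.2505 over all features. Another probe differed by -1.02, and a weaker one differed the other way by 0.62. These other probes are annotated to the same transcript, and the brightest to a different one. The mean of the gene's probes above background differed by -0.49 (limma adjusted p = 0.582). The 2 deposited tables disagree on the names of 2 arrays (wild type replicate 2, mH2A1.2_KO replicate 1), whose names here follow the normalized table. Under the normalized table's names, the raw columns run in the order of the chip positions in the sample titles, E to H. Grouped by the names in the raw table, the brightest MACROH2A1 probe differed by -0.12. Of 6 simple epithelial markers 5 were above background and all 5 measured higher in mH2A1.2_KO. The summed linear signal of these 6 was 5489 to 5528 in wild type and 10950 to 12200 in mH2A1.2_KO. Of 6 androgen-driven luminal prostate markers only STEAP2 was above background, and KLK3 was not. Hepatocyte markers, of interest because liver makes much cholesterol, were above background for 3 of 7, while CYP7A1, TTR, FGB and APOA2 were not. The summed signal of all 7 was 1221 to 1386 in wild type and 1958 to 2361 in mH2A1.2_KO. Of the 3 above background, SERPINA1 was 1.01 ± 0.19 and APOA1 0.47 ± 0.26 higher without overlap, and ALB 0.15 ± 0.17 higher with overlapping groups. The part of these marker differences in the results below was not tested. Markers of adipocytes, leukocytes and fibroblasts were above background for 1 gene in each list, and endothelial markers for 0 of 3.

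Most of the synthesis genes measured higher in mH2A1.2_KO, by small amounts. Of the 31 genes above background 28 were higher and 3 lower, with a median log2 difference of 0.26, against a median of -0.01 over all 13786 features, of which 48.0% were higher. Both mH2A1.2_KO arrays lay above both wild type arrays for 17 of the 31 genes, or 54.8%, where this held for 17.1% of all features. Both lay below for 0 of the 31, against 18.7% of all features, so the groups were apart in either direction for 35.8% of all features. None of the 31 passed the test: limma called 0 genes of the set and 0.00% of all features at an adjusted p under 0.05. At an unadjusted p under 0.05 there were 5, all higher, namely ACAT2, IDI1, SQLE, MSMO1 and ELOVL6, where 4.37% of all features were higher and 7.73% differed either way at that level. With replicate number as a block in the fit, 1 gene of the set (MSMO1, limma adjusted p = 0.0216) and 3.08% of all features passed. No gene of the set reached a 2-fold difference, which 0.791% of all features did. When the arrays were grouped by the raw table's header, 8 of the 31 were higher and the median was -0.12. In that grouping one side holds both first replicates and the other both second replicates.

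**Figure D1:**
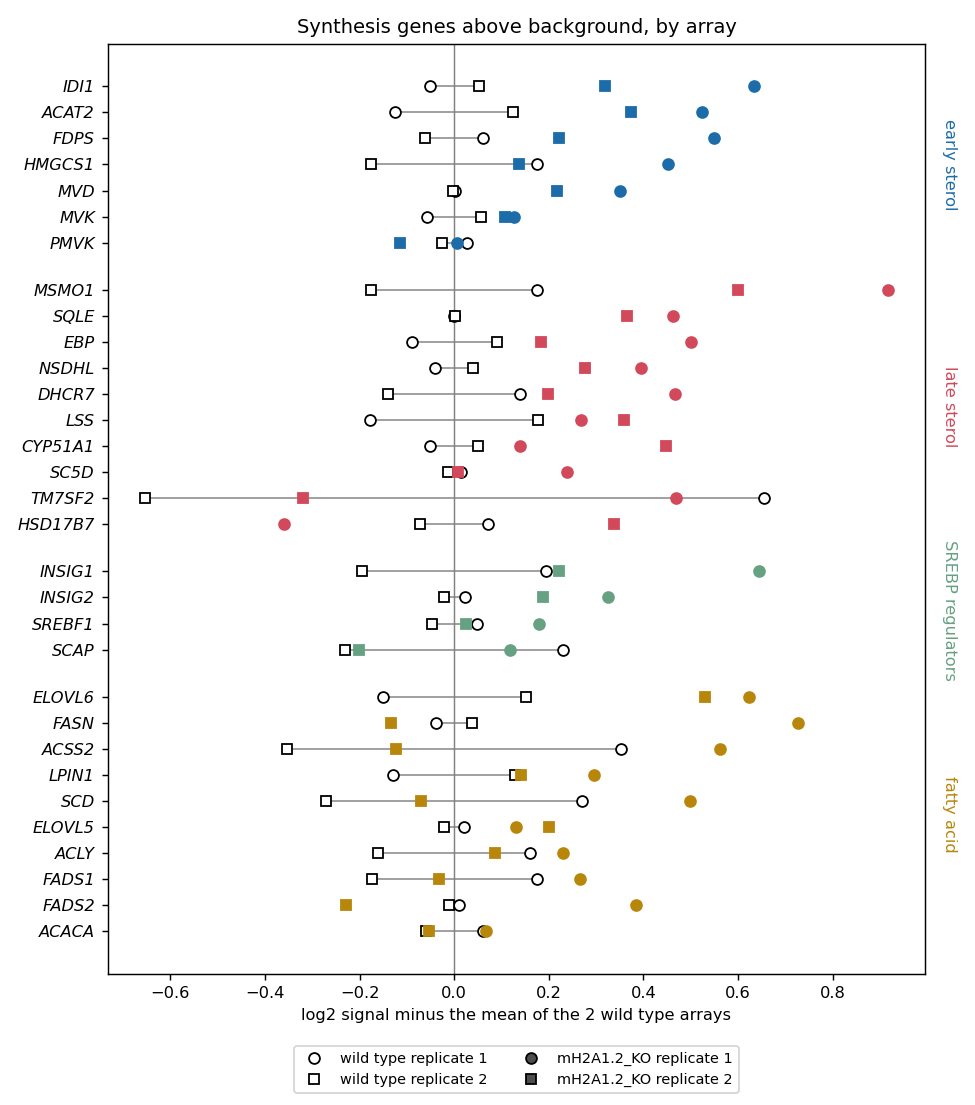
Log2 signal of the 31 synthesis genes above background on each array, relative to the mean of the 2 wild type arrays (open symbols wild type, filled mH2A1.2_KO, circles replicate 1, squares replicate 2). Both filled symbols lie to the right of both open symbols for 17 genes and to the left of both for 0, and in the fatty acid group the filled and open symbols overlap for 7 of 10 genes.

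Early sterol synthesis, which leads from acetyl-CoA to squalene, was higher in mH2A1.2_KO for 6 of 7 genes above background, with a median log2 difference of 0.29 (0.45 without mH2A1.2_KO replicate 2). Groups did not overlap for 5 of the 7 (71.4%), all higher, against 17.1% of all features in that direction. IDI1, the isomerase that makes the second isoprene building block, read 7.92 and 8.02 in wild type cells against 8.61 and 8.29 in mH2A1.2_KO cells, a difference of 0.48 ± 0.18 (limma adjusted p = 0.598). ACAT2, the cytosolic thiolase that joins acetyl-CoA units, read 10.54 and 10.79 in wild type cells against 11.19 and 11.04 in mH2A1.2_KO cells, a difference of 0.45 ± 0.17 (limma adjusted p = 0.616). In each of these genes the groups did not overlap, and mH2A1.2_KO replicate 1 was the highest array. FDPS, which makes farnesyl diphosphate, read 9.21 and 9.08 in wild type cells against 9.69 and 9.37 in mH2A1.2_KO cells, a difference of 0.39 ± 0.18 without overlap. HMGCS1, the synthase that forms HMG-CoA, read 10.89 and 10.54 in wild type cells against 11.17 and 10.86 in mH2A1.2_KO cells, a difference of 0.29 ± 0.20. Its groups overlapped, because wild type replicate 1 lay just above mH2A1.2_KO replicate 2. Of the 3 enzymes that phosphorylate and decarboxylate mevalonate, MVD was 0.28 ± 0.16 and MVK 0.12 ± 0.15 higher without overlap, while PMVK measured -0.05 ± 0.16 with overlapping groups. FDFT1, the squalene synthase, had no probe named for it here.

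Late sterol synthesis, from squalene to cholesterol, was higher for 9 of 10 genes, with a median of 0.32. For 7 of the 10 (70%) the groups did not overlap, all higher, against 17.1% of all features in that direction. MSMO1, the C4-methylsterol oxidase, had the largest difference of the whole set. It read 8.69 and 8.34 in wild type cells against 9.44 and 9.12 in mH2A1.2_KO cells, a difference of 0.76 ± 0.20 or 1.69-fold (limma adjusted p = 0.469), and it ranked 259th of 13786 features by size of difference. Both mH2A1.2_KO arrays were above both wild type arrays by this probe. A dimmer probe annotated to another transcript measured 7.01 and 6.75 against 7.55 and 6.99, or 0.39 ± 0.23. Another probe, which shares its transcript with the brightest, measured 7.02 and 7.21 against 7.08 and 7.12, a difference of -0.01 ± 0.16. The 3 MSMO1 probes thus ranged from -0.01 to 0.76.

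SQLE, the squalene epoxidase and a control point of the pathway, read 9.89 and 9.89 in wild type cells against 10.35 and 10.25 in mH2A1.2_KO cells, a difference of 0.41 ± 0.15 (limma adjusted p = 0.596). This difference was 4.28 times the larger gap between its replicates, the highest such ratio in the set, and its second probe measured 0.26 ± 0.18 higher. EBP, the sterol isomerase, read 9.82 and 10.00 in wild type cells against 10.41 and 10.09 in mH2A1.2_KO cells, a difference of 0.34 ± 0.18. NSDHL, the dehydrogenase that acts after MSMO1, read 8.91 and 8.99 in wild type cells against 9.35 and 9.23 in mH2A1.2_KO cells, a difference of 0.34 ± 0.16. Groups did not overlap for EBP or NSDHL. DHCR7, the reductase of the last step, was 0.33 ± 0.19 higher, the cyclase LSS 0.31 ± 0.18 and the demethylase CYP51A1 0.29 ± 0.18, each without overlap. CYP51A1 was dim, at 6.69 and 6.79 in wild type cells against 6.88 and 7.19 in mH2A1.2_KO cells. The second DHCR7 probe measured 9.89 and 9.49 against 10.31 and 9.62, a difference of 0.27 ± 0.27 with overlapping groups. With 1 array left out, DHCR7 ran from 0.19 to 0.47, LSS from 0.14 to 0.49 and CYP51A1 from 0.14 to 0.45. The desaturase SC5D was 0.12 ± 0.17 higher with overlapping groups.

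TM7SF2 and HSD17B7 differed more between replicates than between groups. The larger replicate gap also exceeded the group difference for LSS (0.36 against 0.31), CYP51A1 (0.31 against 0.29) and SC5D (0.23 against 0.12). TM7SF2, a sterol C14 reductase, read 10.22 and 8.91 in wild type cells against 10.04 and 9.25 in mH2A1.2_KO cells. Its group difference was 0.07 ± 0.46, with a 95% interval from -1.05 to 1.202. HSD17B7, a ketosteroid reductase of the pathway, read 10.42 and 10.27 in wild type cells against 9.99 and 10.68 in mH2A1.2_KO cells, a difference of -0.01 ± 0.25. HSD17B7 has near-identical pseudogene copies, so its probe may read more than the gene. No test of the difference between early and late sterol genes was made.

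**Figure D2:**
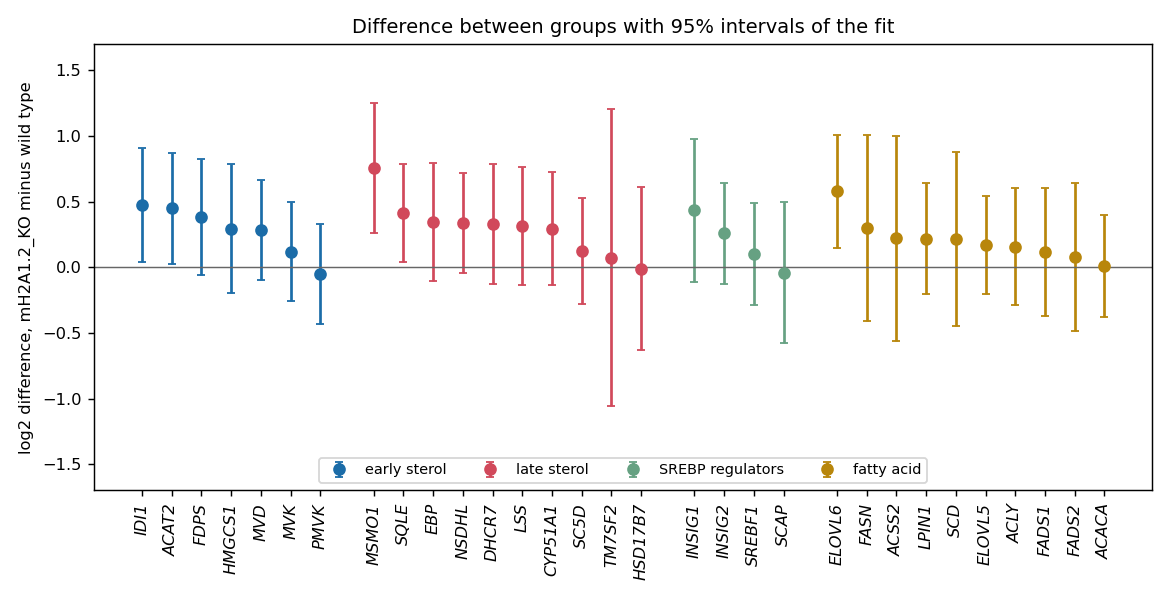
Log2 difference of each gene, mH2A1.2_KO minus wild type, with the 95% interval of the limma fit (n = 2 arrays per group). Intervals of ACAT2, IDI1, MSMO1, SQLE and ELOVL6 lie above 0 before adjustment, and TM7SF2 has the widest interval.

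Of the SREBP regulators, 3 of 4 above background measured higher, the INSIG genes by the most, and the median was 0.18 (0.11 without mH2A1.2_KO replicate 1). INSIG1, which holds SCAP in the endoplasmic reticulum and is itself an SREBP target, read 9.54 and 9.145 in wild type cells against 9.99 and 9.56 in mH2A1.2_KO cells, a difference of 0.43 ± 0.22 or 1.35-fold (limma adjusted p = 0.758). INSIG2, a second anchor of SCAP, read 8.92 and 8.88 in wild type cells against 9.22 and 9.09 in mH2A1.2_KO cells, a difference of 0.26 ± 0.16. Groups did not overlap in either INSIG gene, though mH2A1.2_KO replicate 2 lay only just above wild type replicate 1 for INSIG1. The INSIG1 difference was 0.22 when mH2A1.2_KO replicate 1 was left out and 0.24 when wild type replicate 2 was. SREBF1 read 7.99 and 7.89 in wild type cells against 8.12 and 7.97 in mH2A1.2_KO cells, a difference of 0.10 ± 0.16 (95% interval -0.29 to 0.49), and its second probe was 0.05 ± 0.15 higher. SCAP, the escort of SREBP, read 10.56 and 10.10 in wild type cells against 10.45 and 10.12 in mH2A1.2_KO cells, a difference of -0.04 ± 0.22. The groups overlapped for SREBF1 and SCAP. SREBF2 was above background on 1 of 4 arrays and STARD4, a sterol carrier, on 0, so neither was tested.

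Fatty acid genes were each measured higher, 10 of 10 with a median of 0.19. Of the 10, 3 (30%) had groups that did not overlap, against 17.1% of all features in that direction. In the neighbouring lists described below, this share was 30.8% for fatty acid oxidation and 28.6% for SREBP processing. It was 20% for fatty acid branches, 13.3% for cholesterol handling and 10% for isoprenoid branches. The median of the fatty acid genes was -0.042 when mH2A1.2_KO replicate 1 was left out, 0.032 when it was wild type replicate 2 and 0.34 when it was mH2A1.2_KO replicate 2. ELOVL6, which elongates palmitate to stearate, had the largest difference among them. It read 8.53 and 8.83 in wild type cells against 9.30 and 9.21 in mH2A1.2_KO cells, a difference of 0.58 ± 0.18 or 1.49-fold (limma adjusted p = 0.503), without overlap, and its second probe measured 0.32 ± 0.19 higher. ELOVL5, the elongase of polyunsaturated fatty acids, was 0.17 ± 0.15 higher and LPIN1, a phosphatidate phosphatase, 0.22 ± 0.17 higher, with log2 values of 9.80 and 10.06 in wild type cells against 10.23 and 10.07 in mH2A1.2_KO cells. For LPIN1 the second replicates of the groups lay only 0.012 apart.

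The core enzymes of fatty acid synthesis overlapped between groups. FASN, the fatty acid synthase, read 11.80 and 11.88 in wild type cells against 12.57 and 11.71 in mH2A1.2_KO cells, a difference of 0.30 ± 0.29. Only mH2A1.2_KO replicate 1 was high, and replicate 2 lay below both wild type arrays. ACSS2, which makes acetyl-CoA from acetate, read 10.25 and 9.54 in wild type cells against 10.46 and 9.77 in mH2A1.2_KO cells, a difference of 0.22 ± 0.32. SCD, the stearoyl-CoA desaturase, read 12.61 and 12.07 in wild type cells against 12.84 and 12.27 in mH2A1.2_KO cells, a difference of 0.21 ± 0.27. In ACSS2 and SCD the first replicate was the higher array of each group. ACACA, the acetyl-CoA carboxylase of the committed step, differed by 0.008 ± 0.159 (95% interval -0.38 to 0.40), and ACLY, which makes acetyl-CoA from citrate, by 0.16 ± 0.18. The desaturases FADS1 and FADS2 differed by 0.12 ± 0.20 and 0.08 ± 0.23. ACSL3, an acyl-CoA synthetase, had no probe named for it here.

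The genes varied between replicates as well as between groups, and no test compared the gene groups with each other. The difference between groups was larger than the gap between replicates in both groups for 5 of 7 early sterol genes, 5 of 10 late sterol genes, 2 of 4 regulators and 2 of 10 fatty acid genes. It was so for 14 of the 31 genes, or 45.2%, against 25.0% of all features. SCD was higher in replicate 1 than in replicate 2 by 0.54 in wild type and 0.57 in mH2A1.2_KO, each more than its difference between groups. For ACSS2 these values were 0.71 and 0.68, and for TM7SF2 1.31 and 0.79. The mean difference of replicate 1 minus replicate 2 had a median of 0.275 over fatty acid genes and 0.258 over regulators, against 0.0867 over early sterol genes, 0.0585 over late sterol genes and -0.0148 over all features. The sample titles place all 4 arrays on 1 chip, with both first replicates at positions E and F and both second replicates at G and H. Replicate number and position on the chip cannot be told apart, and their part in these results was not tested.

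**Figure D3:**
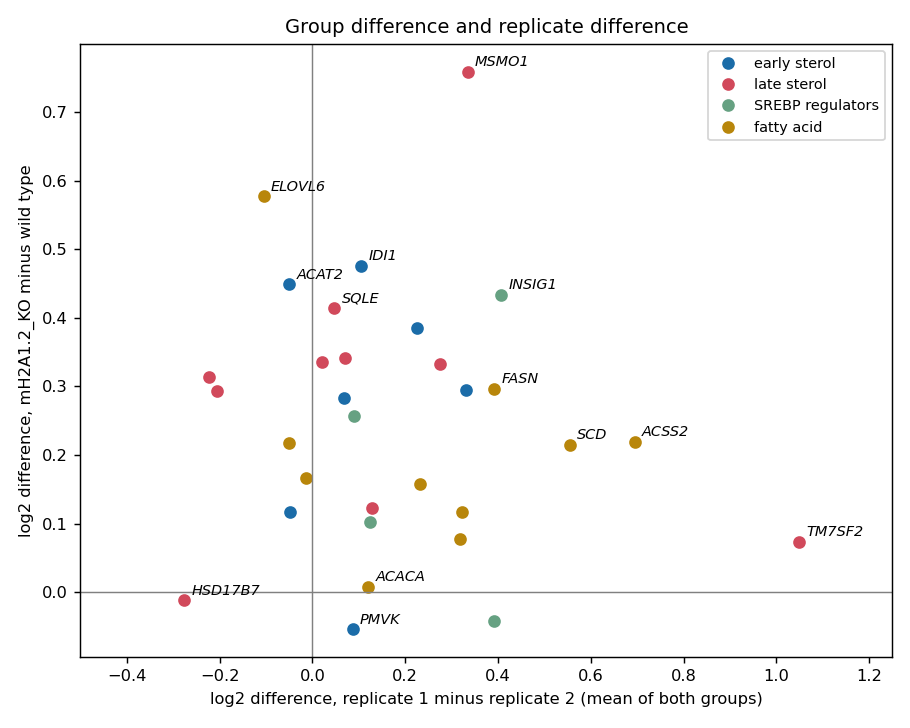
Difference between groups (vertical axis, log2, mH2A1.2_KO minus wild type) against the difference between replicates (horizontal axis, log2, replicate 1 minus replicate 2, mean of both groups) for the 31 genes. MSMO1 and ELOVL6 lie highest, while TM7SF2, ACSS2 and SCD lie farthest to the right.

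Single pairs of arrays were also compared. With mH2A1.2_KO replicate 1 the median of the late sterol genes was 0.38 above wild type replicate 1 and 0.38 above wild type replicate 2. With mH2A1.2_KO replicate 2 it was 0.34 above wild type replicate 2 and 0.29 above wild type replicate 1. The early sterol medians were 0.35, 0.40, 0.25 and 0.17 in the same order, and the last of these compares mH2A1.2_KO replicate 2 with wild type replicate 1, the arrays that both deposited tables name alike. In the same order the fatty acid medians were 0.22, 0.42, 0.17 and -0.10, with 10, 10, 8 and 3 of 10 genes higher. The medians of the regulators were 0.22, 0.35, 0.14 and 0.0025. Over all 31 genes 27, 30, 28 and 18 were higher, and the median of the last pair was 0.16. Within the wild type group, replicate 1 minus replicate 2 gave medians of 0.0033 for early and 0.013 for late sterol genes. Within mH2A1.2_KO it gave 0.15 and 0.17, with replicate 1 higher for 7 of 7 early and 7 of 10 late sterol genes. The other 3 late genes were HSD17B7, CYP51A1 and LSS. Without mH2A1.2_KO replicate 1 the median of the fatty acid genes was -0.042, with 4 of 10 higher, and those of early and late sterol genes were 0.22 and 0.31.

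**Figure D4:**
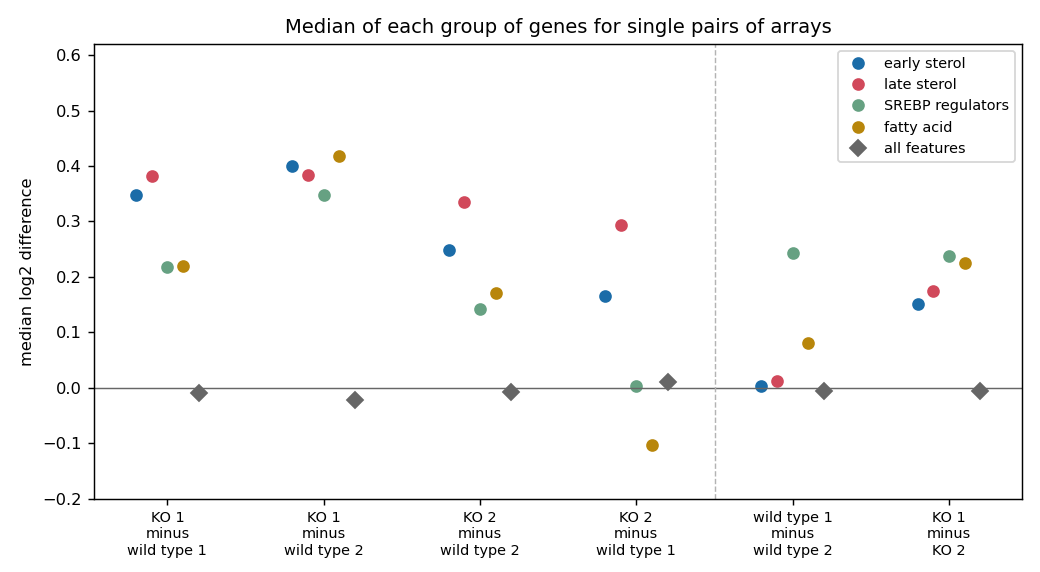
Median log2 difference of each group of genes for single pairs of arrays, with the 4 pairs of mH2A1.2_KO (KO) against wild type to the left of the dashed line and the 2 pairs within a group to the right. The late sterol medians stay between 0.29 and 0.38 in the 4 pairs, while the fatty acid medians run from -0.10 to 0.42.

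Genes around these pathways were mostly balanced between higher and lower. In the fit of all 4 arrays without a replicate block, 0 of them passed the test in either direction. HSD17B12, the ketoacyl-CoA reductase that works with the elongases, had the largest difference among 65 such genes above background. It read 9.32 and 9.52 in wild type cells against 10.39 and 10.36 in mH2A1.2_KO cells, a difference of 0.95 ± 0.16 or 1.94-fold (limma adjusted p = 0.310), and its second probe measured 8.01 and 8.29 against 9.31 and 9.13. Both probes separated the groups, and the gene did not pass the test in the fit of all 4 arrays. With 1 array left out the limma adjusted p ran from 0.03998 (without wild type replicate 2) to 0.9997 (without mH2A1.2_KO replicate 1). In such a fit the lone array of a group is assumed to vary like the other group, and 1.13% of all features passed in the first of these. With replicate number as a block, HSD17B12 passed (limma adjusted p = 0.00976). It was in a list of fatty acid branch genes of which 11 of 20 were higher, with a median of 0.064. Groups in that list did not overlap for 4 genes measured higher and 5 measured lower. Over all features these shares were 17.1% and 18.7%. The elongase ELOVL2 was 0.34 ± 0.23 higher in that list, with overlapping groups.

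Cholesterol handling genes were higher for 8 of 15, with a median of 0.010. OSBPL2, an oxysterol-binding lipid carrier, read 7.96 and 7.67 in wild type cells against 8.59 and 8.38 in mH2A1.2_KO cells, a difference of 0.67 ± 0.18 (limma adjusted p = 0.469, or 0.0350 with the replicate block), and SCARB1, the HDL receptor, was 0.34 ± 0.16 higher. Groups did not overlap in either gene. ABCA1 and ABCG1, sterol exporters under the oxysterol receptors, differed by 0.05 ± 0.19 and -0.01 ± 0.15. Proteins that process SREBP were higher for 5 of 7, with a median of 0.063. PAQR3, a Golgi anchor of SCAP and SREBP, was 0.32 ± 0.18 higher, the ubiquitin ligase RNF145 0.19 ± 0.16 higher, and MBTPS1, the protease that makes the first cut in SREBP, differed by -0.07 ± 0.24.

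Isoprenoid branch genes, which use the early sterol intermediates for other products, were higher for 5 and lower for 5, with a median of 0.016. PDSS1 and PDSS2, the subunits of the enzyme that makes the tail of coenzyme Q, differed by -0.29 ± 0.33 and 0.28 ± 0.16. Fatty acid oxidation genes, the opposing pathway, were higher for 6 and lower for 7, with a median of -0.013, and ACADM, a medium-chain dehydrogenase, differed by -0.25 ± 0.18 and the carnitine carrier SLC25A20 by 0.20 ± 0.16.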

How the data were processed

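Total RNA was converted to labelled cRNA for Illumina arrays, per the labels' protocols, and GenomeStudio is the tool in the submitters' processing notes. In 1 of 2 tables the authors deposited bead intensity values of 47230 probes, not normalized as far as the values show, each with a column that the file headers name as its detection p-value. The other deposited table holds normalized values of 43893 probes, which by their range are log2, made by steps that no source used here describes.

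Each raw array followed 1 normalized column (r at least 0.9969 over 8096 bright probes, next highest 0.0235), which exposed the disagreement on 2 array names. Normalized values were quantile normalized over the 4 arrays. Probes were named through the platform annotation, updated by Entrez ID (29471 with 1 symbol, 0 with several, 14422 unnamed), and 16950 above background were kept. The brightest probe stood for a gene, giving 13786 features. The test was two-sided limma (version 3.58.1, R 4.3.3, eBayes with 2 residual and 4.1 prior degrees of freedom), with p-values adjusted across the 13786 features by Benjamini-Hochberg and a threshold of 0.05. SE are moderated. The 13 alternatives are given in the closing section. The number of arrays limits the precision.

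All synthesis genes are accounted for. Array values are given for every regulator above background, and in each other group for the 4 genes with the largest difference and those whose probes differ in sign. From each neighbouring list the 2 genes with the largest difference are named. Array values of MVK, CYP51A1, TM7SF2, HSD17B7 and SCD, and differences of ABCA1, ABCG1 and MBTPS1, fall outside this rule. They were picked with their values in view. Members and lists were chosen with earlier results of these data known.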

Additional observations from a re-analysis of the deposited data

How the results depend on the processing

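Of 13 alternatives, values as deposited, neqc on the raw signals, no detection filter, detection on all 4 arrays, the mean of a gene's probes and an intensity trend left each of the 31 differences with its sign, except that HSD17B7 was 0.023 with the values as deposited. Sizes moved more: with neqc MVK was 0.37, FADS2 0.24 and CYP51A1 0.47, and with the mean of probes MSMO1 was 0.38. With no detection filter 2 features passed and the median of the regulators was 0.042 over 6 genes.

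The labels do not say that replicate numbers pair the arrays. Deviations of same-numbered arrays correlated at 0.575. With a replicate block 425 features passed, with 1 synthesis gene, MSMO1 (limma adjusted p = 0.0216), and 2 neighbouring genes, OSBPL2 (0.0350) and HSD17B12 (0.00976). MACROH2A1 passed with the block (0.00504). With 1 array left out its limma adjusted p was 0.0367 (wild type replicate 2 left out), 0.0797 (wild type replicate 1), 0.9997 (mH2A1.2_KO replicate 1) or 0.7721 (mH2A1.2_KO replicate 2). Each such fit leaves 1 array in a group, which is assumed to vary like the other group.

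When 1 array was left out, 0 to 156 features, 0 synthesis genes and 0 to 1 neighbouring genes passed, with 57 features without wild type replicate 1 and 156 without wild type replicate 2. Medians ran from 0.18 to 0.38 over the 31 genes, 0.22 to 0.45 for early sterol, 0.27 to 0.43 for late sterol and -0.042 to 0.34 for fatty acid genes, of which 4 to 10 were higher. Differences that kept their sign ran from 0.12 to 0.47 for HMGCS1, 0.22 to 0.55 for FDPS, 0.18 to 0.50 for EBP, 0.22 to 0.65 for INSIG1 and 0.089 to 0.35 for LPIN1. Differences that turned sign ran from -0.36 to 0.34 for HSD17B7, -0.58 to 0.73 for TM7SF2, -0.11 to 0.0067 for PMVK, -0.27 to 0.19 for SCAP, -0.0035 to 0.32 for ACLY, -0.13 to 0.57 for ACSS2, -0.053 to 0.068 for ACACA, -0.070 to 0.50 for SCD, -0.058 to 0.29 for FADS1, -0.13 to 0.73 for FASN, -0.23 to 0.38 for FADS2 and -0.76 to 0.18 for PDSS1.

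With the arrays that both tables place alike, a value with no test, medians were 0.17 for early sterol, 0.0025 for regulators and -0.10 for fatty acid genes, of which 3 were higher, and 18 of all 31 were higher.

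With the raw table's array names 8 of the 31 were higher (2 early sterol, 3 late sterol, 0 regulators, 3 fatty acid), with medians of -0.12 in all and -0.087, -0.059, -0.26 and -0.28 in that order. Values that turned were HMGCS1 -0.33, MVD -0.068, IDI1 -0.11, FDPS -0.23, SQLE -0.048, TM7SF2 -1.05, MSMO1 -0.33, NSDHL -0.020, HSD17B7 0.28, EBP -0.069, SC5D -0.13, DHCR7 -0.27, SREBF1 -0.12, INSIG1 -0.41, INSIG2 -0.090, ACLY -0.23, ACSS2 -0.69, ACACA -0.12, FASN -0.39, SCD -0.56, FADS1 -0.32 and FADS2 -0.32. Among neighbouring genes they were PDSS1 0.67, PDSS2 -0.089, PAQR3 -0.18, RNF145 -0.036, OSBPL2 -0.25 and SCARB1 -0.14. Under the normalized table's names, this grouping sets both second replicates against both first replicates. Each of its values is therefore the mean difference of replicate 1 minus replicate 2 with its sign turned, and not a separate result. Why the deposited tables differ in array names was not tested.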
